A study of Mus musculus with 6 samples.

Results

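The genes described here encode the plasminogen activating system: plasminogen (Plg), its activators Plau and Plat, the receptor Plaur and the inhibitors Serpine2 and Serpinb2. They were chosen by name, with earlier results of these data known, and found through their gene identifiers. All 6 were among the 21959 genes with a usable value in both conditions. The study compared primary colorectal tumor cells of mice with and without a peptide inhibitor of p21-activated kinases (Paks). PID+ cells came from tumors of CDX2P-NLS-Cre;APCΔ/+;ROSA26-PID mice, in which Cre removes a stop cassette so that the Pak inhibitor domain (PID) is made as a GST fusion from the Rosa26 locus, followed by eGFP. PID- cells came from tumors of CDX2P-NLS-Cre;APCΔ/+ littermates, and the labels call them normal and untreated although they too are tumor cells. Both groups therefore carry the same Cre and a deleted Apc allele in the epithelium where the CDX2P-NLS-Cre transgene is expressed. The paper places this mainly in the large intestine and distal small intestine. The paper gives an age for its tumor cohorts but does not state the age of the mice from which these cells were isolated.

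RNA of 3 samples per group, labelled as mice 4, 7 and 26 for PID+ and as mice 1, 2 and 3 for PID-, was sequenced after poly(A) selection without strand information. The paper gives its PID- lines other numbers, and the sources used here do not link the numberings. The authors merged the reads of each group, so each gene has 1 pooled value per condition in FPKM, a fragment count divided by transcript length and library size, with a confidence interval from CuffDiff. The interval holds no estimate of variation between samples, since CuffDiff received 1 merged alignment per condition. Whether intervals overlap or lie apart therefore does not measure if a difference would recur in other samples. Values per sample were not analysed here, so that replicates cannot be used to check a difference, and p-values were not calculated. In these bulk cultures fewer cells of a type and less RNA per cell cannot be told apart.

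Plasminogen is an inactive precursor made mainly by the liver, and it is cut to the protease plasmin by urokinase (Plau) or tissue plasminogen activator (Plat). Urokinase acts at the cell surface, where it binds its receptor Plaur, whereas Plat acts best on fibrin, and plasmin then degrades fibrin and pericellular matrix and activates latent proteases and growth factors. Inhibitors of the serpin family trap either activator in a stable complex, and the system is studied in colorectal tumors for its part in invasion.

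Plasminogen itself was listed at 0 in both conditions. Plg (ENSMUSG00000059481.4, chromosome 17 of GRCm38, from 12378608 to 12419385) overlaps Slc22a3, a cation transporter gene on the other strand that was at 0 in PID+ cells and at 0.00320 FPKM in PID- cells. The cultures thus held transcripts of both activators without a measured transcript of their substrate.

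The activators were among the well expressed genes of both conditions. Plau (ENSMUSG00000021822.2, chromosome 14, from 20836660 to 20843385) reached 96.6 FPKM in PID+ cells, with an interval from 43.4 to 149.8, and 50.3 in PID- cells, with an interval from 21.5 to 79.1. The PID+ value was 1.92 times the PID- value, and the intervals overlapped. On the scale used throughout, log2 of FPKM plus a pseudocount of 1, the change was 0.93. By level, Plau ranked 872 among all genes in PID+ cells and 1892 in PID- cells. Of the 11785 genes that reached 1 FPKM in either condition, 7.20% had a larger log2 change.

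Plat (ENSMUSG00000031538.5, chromosome 8, from 22757727 to 22782844) had the highest level of the 6 genes in PID+ cells. Its FPKM was 126.1 in PID+ cells, with an interval from 57.9 to 194.3, and 48.1 in PID- cells, with an interval from 20.6 to 75.5. This is a ratio of 2.62 and a log2 change of 1.37, the largest of the 6 on that scale, but the intervals shared the range between 57.9 and 75.5. Plat ranked 2002 in PID- and 636 in PID+ cells, and 2.93% of the 11785 genes had a larger log2 change. In PID- cells the activators stood at nearly equal levels, with a Plat to Plau ratio of 0.956, whereas in PID+ cells the ratio was 1.31. The leading activator transcript therefore differed between the conditions, within intervals that overlapped in each of them.

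Plaur (ENSMUSG00000046223.9, chromosome 7, from 24462484 to 24475968), the glycolipid-anchored receptor that holds urokinase at the cell surface, reached 71.2 FPKM in PID+ cells, with an interval from 29.2 to 113.1. In PID- cells it had 40.4, with an interval from 14.3 to 66.5. The ratio was 1.76, the log2 change 0.80, and the intervals overlapped. Plaur ranked 1263 in PID+ and 2467 in PID- cells, and 9.21% of the 11785 genes had a larger log2 change. Ligand and receptor kept close proportions: the Plau to Plaur ratio of FPKM was 1.36 in PID+ cells against 1.25 in PID- cells.

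The listed inhibitors were expressed at far lower levels than the activators. Serpine2 (ENSMUSG00000026249.7, chromosome 1, from 79794197 to 79861180), or protease nexin 1, which traps thrombin, urokinase and plasmin, reached 3.98 FPKM in PID+ cells, with an interval from 0 to 8.43. In PID- cells it had 2.80, with an interval from 0 to 6.90. It ranked 9560 in PID+ and 10251 in PID- cells, among transcripts of low level, and the ratio was 1.42. The log2 change of Serpine2, 0.39, was 0.31 with total FPKM set equal and 0.39 with the upper quartile of FPKM set equal. With Gapdh brought to the same level in both conditions it turned into -0.085, so no direction can be given for Serpine2.

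Serpinb2 (ENSMUSG00000062345.7, chromosome 1, from 107511423 to 107535478), plasminogen activator inhibitor 2, is a largely intracellular serpin that inhibits urokinase when secreted. Its FPKM was 3.59 in PID+ cells, with an interval from 0 to 7.64, and 1.03 in PID- cells, with an interval from 0 to 2.44. The ratio of 3.47 was the largest of the 6 genes, but at this low level the log2 change was 1.17 with a pseudocount of 1 and 1.70 with a pseudocount of 0.1. Only the second lies past the 3-fold threshold, and the interval in PID- cells lay wholly within that in PID+ cells. Serpinb2 ranked 9742 in PID+ and 11337 in PID- cells.

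**Figure D1:**
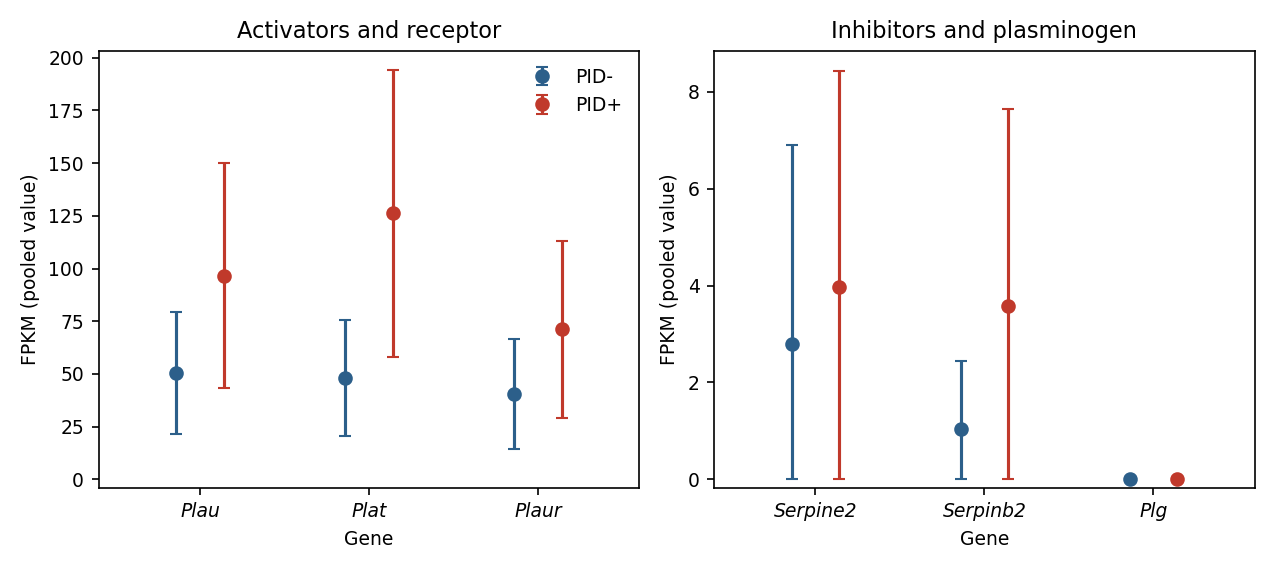
Pooled FPKM of each gene in PID- (blue) and PID+ (red) cells on linear axes, with bars for the deposited CuffDiff intervals. The 5 genes with a value above 0 had the higher FPKM in PID+ cells with overlapping bars, and Plg was at 0; with Gapdh set equal Serpine2 was instead lower in PID+ cells.

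At least 3-fold, 0 of the 6 genes were higher in PID+ cells, against 1.04% of all genes, and 0 were lower, against 1.72%. Deposited intervals were apart for 0 of the 6 genes, against 0.187% of all genes in the higher and 0.542% in the lower direction. With 6 genes and shares this small, counts of 0 say little about these genes. The differences the genes shared were of smaller size. Of the 6 genes, 5 reached 1 FPKM, in both conditions, and their median log2 change was 0.93, beside -0.0065 over the 11785 genes that reached this level in either condition. At least 1.5-fold, a limit chosen after the values were seen, 4 of these 5 genes were higher (Plau, Plat, Plaur and Serpinb2), against 14.7% of the 11785. Because the genes were chosen with earlier results of these data known, the shares set beside them are a description and not a test.

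The size of these differences depended on the reference. With the upper quartile of FPKM set equal, the median log2 change of expressed genes moved by 0.0006. With total FPKM set equal it moved by -0.094. In that order, the log2 changes were 0.93 and 0.83 for Plau, 0.80 and 0.70 for Plaur, and 1.37 and 1.27 for Plat. A single gene as reference, Gapdh, moved them further. Gapdh, with an FPKM of 2570 in PID+ cells against 1666 in PID- cells, was 1.54 times as high in PID+ cells, and when it was set equal the median log2 change of expressed genes fell by 0.56. The log2 changes of Plau, Plaur, Plat and Serpinb2 were then 0.31, 0.19, 0.75 and 0.71, all still above 0. At least 1.5-fold, 2 of the 5 expressed genes, Plat and Serpinb2, were then higher, against 4.99% of the 11785.

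Ratios of genes within a condition do not depend on such scaling, whereas sums compared between conditions do. Plau and Plat together reached 222.7 FPKM in PID+ cells against 98.4 in PID- cells, and Serpine2 and Serpinb2 together had 7.56 and 3.83. The sums were 2.26 and 1.98 times as high in PID+ cells, and 1.47 and 1.28 times with Gapdh set equal. Activator transcripts thus exceeded those of the listed inhibitors by a ratio of 29.4 in PID+ cells against 25.7 in PID- cells, and the ratios differed by a factor of 1.15. The Serpine2 to Serpinb2 ratio was 1.11 in PID+ cells against 2.71 in PID- cells. The intervals of both genes reached 0 in both conditions. They leave this ratio unbounded, and the ratios of activators to listed inhibitors without an upper bound. These sums cover Serpine2 and Serpinb2 alone and do not measure the whole inhibitor content of the cells. On the list of other inhibitors, Serpini1 and Serpina5 were below 0.1 FPKM in both conditions, with Serpini1 at 0.0760 in PID+ cells against 0.0553 in PID- cells, an order that flips when Gapdh is set equal.

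Markers of other cell types were looked at beside these values. All 9 fibroblast markers were measured, and 5 reached 1 FPKM. Their summed FPKM was 7.39 in PID+ cells against 43.9 in PID- cells, and 4 of the 9 lay past 3-fold in the lower direction. Col1a1, the most abundant over both conditions summed, had 2.32 and 11.9, while Acta2 led in PID+ cells at 4.39 and Col1a2 in PID- cells at 11.9. Lum was at 0 in both conditions, and Dcn was at 0 in PID+ cells and 2.39 in PID- cells. This list thus moved opposite to Plau, Plat and Plaur, and its part in these values was not tested.

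The 9 markers of the epithelial list had a summed FPKM of 8654 in PID+ cells against 4841 in PID- cells. With Gapdh set equal the PID+ sum was 5611. Krt8, Krt18 and Krt19 made up most of both sums. At least 3-fold, 1 of the 9 markers was higher and 2 were lower in PID+ cells. Krt19 had the highest level over both conditions summed, at 2469 and 2073, an order that flips when Gapdh is set equal. In PID+ cells Krt18 and Krt8 stood above it, at 2843 and 2745, and in PID- cells they had 1199 and 1319 (log2 changes 1.24 and 1.06). Epcam, at 400.5 and 124.4, had a log2 change of 1.68, and Cdh1, at 192.5 and 88.0, had 1.12. By contrast, Cdx2, the intestinal identity factor, had 0.542 and 8.04 and Cdh17 had 1.67 and 25.9. Vil1 was below 1 in both conditions, at 0.175 and 0.0614, and Lgals4 had 1.86 and 3.43. The part of this list in the higher activator values was not tested. Of the 6 endothelial markers, 1 reached an FPKM of 1 (Kdr, 3.33 in PID+ cells against 1.01 in PID- cells), and the list summed to 4.08 and 1.46. The 8 macrophage and leukocyte markers summed to 51.1 in PID+ cells against 45.7 in PID- cells, led by Cd14 at 29.1 and 28.6, and the order of this sum and of Cd14 flips when Gapdh is set equal, while Ptprc had 0.0264 and 0.00811 and Cd3e was at 0. The defining genes Pecam1, Ptprc and Cd3e were thus at or near 0, whereas Kdr, Cd14 and Cd68 were not.

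Position did not group the 6 genes, which lie on 5 chromosomes. Serpine2 and Serpinb2 share chromosome 1 at a distance of 27.7 Mb. Relative to the median log2 change of their chromosomes, the change was 0.67 for Plau, 0.56 for Plaur, 0.40 for Serpine2 and 1.19 for Serpinb2, and that of Plat lay above its uncorrected 1.37, since the median of chromosome 8 was -0.13. The direction of these 5 genes was therefore the same after this correction, whereas Serpine2 reverses with Gapdh set equal.

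The nearest genes of the table had changes of either sign. Beside Plau, Camk2g, a calmodulin-dependent kinase, reached 9.66 FPKM in PID+ cells against 11.2 in PID- cells, and Vcl, the adhesion protein vinculin, had 35.6 and 32.7, an order that flips when Gapdh is set equal. Beside Plat, the NF-kappaB kinase gene Ikbkb had 42.9 in PID+ cells against 48.5 in PID- cells. Ap3m2, an adaptor subunit 4510 bases beyond Plat, had 3.24 and 9.97 (log2 change -1.37). Plat and its closest neighbour thus had changes of opposite sign. Beside Plaur, Irgc1 was below 0.1 in both conditions, and Cadm4, a cell adhesion molecule gene, had 6.63 in PID+ cells against 2.62 in PID- cells (log2 change 1.08). Plaur and Cadm4 thus both had the higher value in PID+ cells. Next to Plg, Map3k4 had 6.91 in PID+ cells against 9.53 in PID- cells. Next to Serpine2, Ap1s3, an adaptor subunit, had 12.9 and 7.57, and Fam124b was below 0.1.

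Serpinb2 lies in a cluster of 12 measured clade B serpin genes within 0.749 Mb of chromosome 1, of which 5 reached 1 FPKM. Its neighbour Serpinb7, 58734 bases before it, reached 2.17 FPKM in PID+ cells, with an interval up to 5.10, and 35.9 in PID- cells, with an interval from 11.7. The log2 change of -3.54 was the largest of the cluster in either direction and opposite to the 1.17 of Serpinb2. Serpinb10, whose annotated span overlaps that of Serpinb2 on the same strand, was at 0 in both conditions. Serpinb11 had 36.7 in PID+ cells against 66.5 in PID- cells, Serpinb8 had 18.7 and 17.1, and Serpinb5 (maspin) had 32.4 and 9.95 (log2 change 1.61). The order of Serpinb8 flips when Gapdh is set equal.

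**Figure D2:**
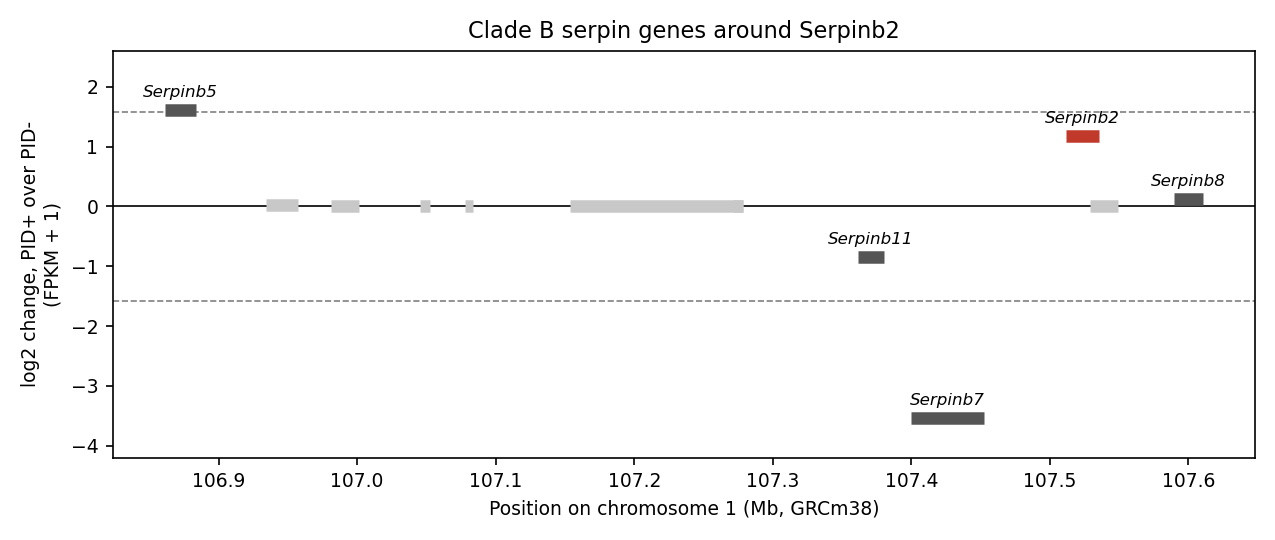
Clade B serpin genes along chromosome 1 (GRCm38, in Mb), each drawn at its annotated span and at the log2 change of its pooled FPKM plus 1 between PID+ and PID- cells; dashed lines mark 3-fold. Serpinb2 (red) is at 1.17, Serpinb7 at -3.54, and the pale genes, with an FPKM below 1 in both conditions, lie at 0 or within 0.019 of it; with Gapdh set equal Serpinb8 is below 0.

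Promoters of 3 of the 6 genes, Plaur, Serpine2 and Serpinb2, were in the RefSeq table used (GRCm38.p6, 250 bases before to 50 after each start). Both strands were searched for an AP-1 motif (TGANTCA), a Tcf/Lef motif (TCAAAG), a Snai and Zeb E-box (CAGGTG), an Ets motif (GGAAGT) and a TATA box (TATAAA). Among 32851 promoters these letters occurred in 7.81%, 16.0%, 20.2%, 23.8% and 13.6%, in that order. Plaur held the AP-1 letters 69 bases before its start, and Serpinb2 held them 94 bases before the first of its annotated starts, with the TATA letters 29 bases before it. The letters of the other motifs were not in these windows, the AP-1 and TATA matches did not overlap, and the window of Serpine2 held none of the 5. The stretches of 100 bases just before the starts are shown because both genes had the higher value in PID+ cells and share a motif; capitals mark the AP-1 and TATA letters. Both are on the plus strand, Plaur at chr7:24462383-24462482 and Serpinb2 at chr1:107511323-107511422, upstream of the first exon.
Plaur: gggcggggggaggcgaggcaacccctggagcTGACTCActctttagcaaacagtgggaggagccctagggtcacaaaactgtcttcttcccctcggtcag
Serpinb2: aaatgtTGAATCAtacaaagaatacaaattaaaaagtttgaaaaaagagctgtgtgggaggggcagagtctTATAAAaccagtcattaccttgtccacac
The match is a description of the letters, and binding of a factor was not measured.

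The wider plasmin system was described through 10 lists with 60 genes, of which 59 were measured, Klkb1 being not analysed here, and 27 reached 1 FPKM. At least 3-fold, 4 of the 59 genes were higher (St14, Spint1, Sorl1 and Serpinb5) and 5 were lower in PID+ cells (Vldlr, F2r, Serpinb1a, Serpinb6b and Serpinb7), beside 1.04% and 1.72% of all genes. Of these higher genes, only St14 stayed past 3-fold when total FPKM was set equal, and none did when Gapdh was set equal. The median log2 change of the 27 expressed genes was -0.21, beside 0.93 for the 5 expressed genes of the core system. These lists too were chosen with earlier results of the data known, so the shares of all genes are a description and not a test.

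Transcripts of the lists of other activating proteases, plasmin inhibitors and fibrin partners were below 1 FPKM. Other plasminogen activating proteases had 0 of 2 genes at 1 FPKM or more, with F12 the most abundant at 0.00598 in PID- cells. The 5 plasmin inhibitors and fibrin protecting genes were all below 1, with Serpinf2 (alpha 2-antiplasmin) leading at 0.0953 in PID+ cells against 0.0319 in PID- cells. Likewise, the 5 fibrin and matrix partners were below 1, and F13a1, at 0 in PID+ cells, led them in PID- cells at 0.786. Plau and Plat were therefore expressed in cells where every measured gene of these 3 lists stayed below 1 FPKM.

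Transcript levels of the listed cell surface receptors for plasminogen were uneven, and surface protein was not measured. Plgrkt had 25.1 FPKM in PID+ cells against 25.0 in PID- cells, an order that flips when Gapdh is set equal. Igf2r had 18.1 and 35.8. All 5 receptor genes reached 1 FPKM, and 0 of the 5 were past 3-fold. Anxa2, the annexin that docks plasminogen and Plat with its partner S100a10, had 1021 in PID+ cells against 1728 in PID- cells, with overlapping intervals and a log2 change of -0.76. The median of this list was -0.76, opposite in sign to that of Plau, Plat and Plaur.

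Of the 6 genes for clearance of protease and inhibitor complexes, 1 was higher and 1 lower at least 3-fold. Lrp1, the most abundant, which takes up receptor-bound urokinase and inhibitor complexes, had 44.4 in PID+ cells against 56.5 in PID- cells. Sorl1, a sorting receptor that also binds urokinase complexes, had 14.5 and 4.03 (log2 change 1.63), and Vldlr had 9.80 and 34.1 (log2 change -1.70). Intervals overlapped for Lrp1, Sorl1 and Vldlr.

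Among the 6 genes of kringle growth factors, their activators and Kunitz inhibitors, 2 were at least 3-fold higher and 0 lower. St14 (matriptase), a membrane protease that can activate urokinase precursor, had 122.5 in PID+ cells, with an interval from 55.2, and 33.7 in PID- cells, with an interval up to 53.5. These intervals were apart, and the log2 change was 1.83. Its Kunitz inhibitor Spint1 had 82.0 and 25.9 (log2 change 1.63), and Spint2, the most abundant of the list, had 242.2 and 90.3 (log2 change 1.41). For Spint1 and Spint2 the intervals overlapped. St14 and both inhibitors were thus higher in PID+ cells along with Plau, and remained so with Gapdh set equal, at log2 changes of 1.21, 1.01 and 0.79.

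Of 6 Ly6 and uPAR domain genes near Plaur, 1 reached an FPKM of 1, Lypd3, with 2.99 in PID+ cells against 0.662 in PID- cells. None of these was past 3-fold with a pseudocount of 1, but with a pseudocount of 0.1 Lypd3 (log2 change 2.02) and Cd177 (1.70) were. A list of 12 clade B serpins, from chromosomes 1 and 13 and without Serpinb2, shares its chromosome 1 genes with the cluster described above. It included 1 at least 3-fold higher (Serpinb5) and 3 at least 3-fold lower (Serpinb7, Serpinb1a and Serpinb6b). Of these, Serpinb5 and Serpinb7 belong to that cluster. Intervals overlapped for Serpinb5 and Serpinb1a. Serpinb6a, the most abundant, had 290.4 in PID+ cells against 482.9 in PID- cells, Serpinb6b had 19.3 and 84.0 with intervals apart, and Serpinb1a, an inhibitor of neutrophil proteases, had 0.481 and 9.18. Serpinb2 was thus a minor clade B transcript in both conditions. Of the 10 genes of thrombin, its cofactors, inhibitors and receptors, 0 were higher and 1 was lower at least 3-fold. F2r, the thrombin receptor, had 22.4 in PID+ cells against 69.6 in PID- cells (log2 change -1.59), with overlapping intervals. F3 (tissue factor) led the list with 222.9 and 168.4, an order that flips when Gapdh is set equal.

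**Figure D3:**
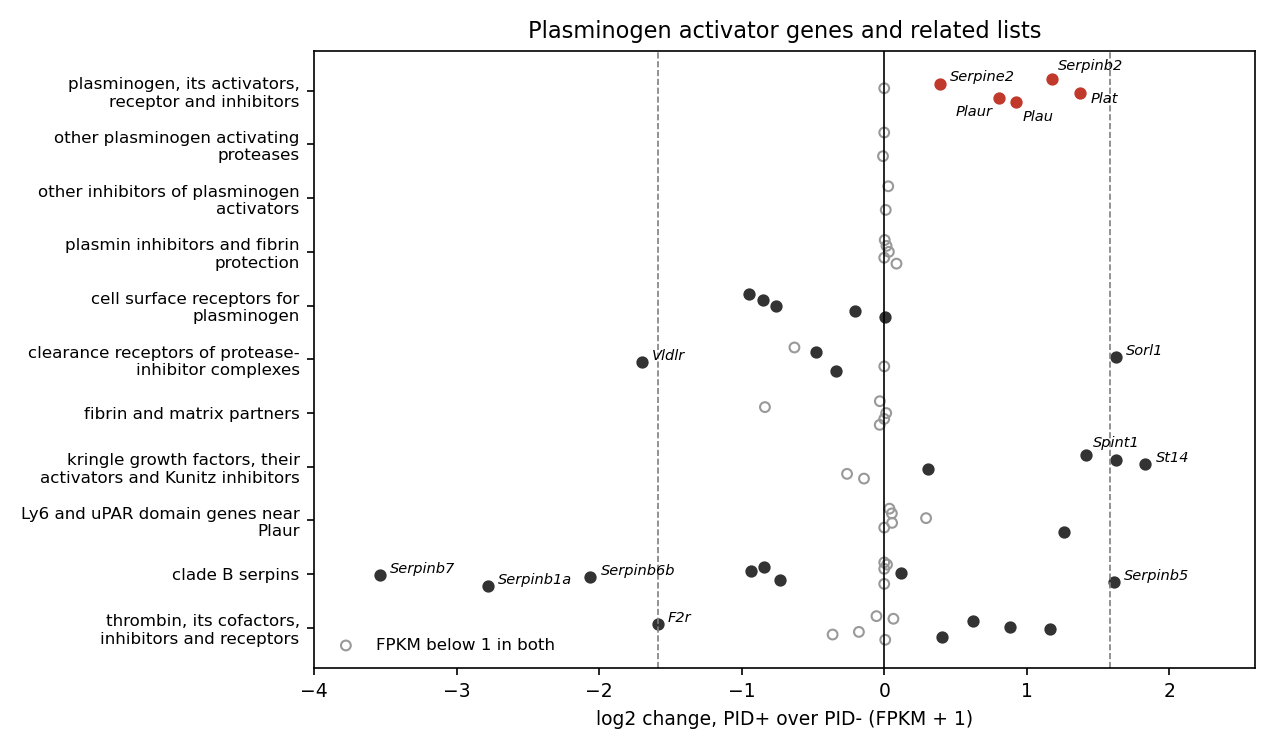
Log2 change of pooled FPKM plus 1 between PID+ and PID- cells for each measured gene by list, with filled points for genes at 1 FPKM or more in either condition, open points below it, and dashed lines at 3-fold. The 5 expressed genes of the top row (red) lie between 0.39 and 1.37; with Gapdh set equal the filled points of Serpine2, F3, Hgfac, Serpinb8 and Plgrkt change side.

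Read numbers could be estimated from the steps of low values. In genes with 1 transcript, 91.9% of 681 low PID+ values and 91.4% of 648 low PID- values came within 0.1 of a whole number of reads between 1 and 5. The length corrections, 180 bases in PID+ and 190 in PID- cells, were taken from a grid of 31. These shares are therefore not an independent check of the estimate. A read was worth an FPKM of 0.0147 in PID+ cells against 0.0106 in PID- cells for each kilobase of effective length. By the longest annotated transcript, and so at most, Plat had an estimated 33188 reads in PID+ and 17508 in PID- cells, Plau 14232 and 10234, and Plaur 8868 and 6943. Serpine2 had an estimated 871 and 847 reads, and Serpinb2 444 and 176. These are upper estimates, and the larger value of a read in PID+ cells applies to every gene. The deposited intervals extended 54.1% of the FPKM to either side for Plat in PID+ cells, and above the FPKM by 113% for Serpinb2 and 112% for Serpine2.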

How the data were processed

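Per the labels and the methods, poly(A) RNA of 3 PID+ and 3 PID- samples was sequenced as 50 base reads. The authors trimmed adapters with cutadapt, aligned reads with TopHat and Bowtie2 to GRCm38.p3, merged the reads of each condition and ran CuffDiff with compatible hits normalization. The methods speak of replicated sequencing runs, whereas the labels name different mice. The deposited values are FPKM, 1 per gene and condition, with other columns holding the deposited bounds of the confidence intervals. CuffDiff was given a single alignment per condition, so the intervals hold no estimate of variation between the samples of a group.

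Of 21966 genes, 21959 had an OK status in both conditions. Symbols were matched by gene identifier for 21734 genes. Log2 changes were calculated as log2 of PID+ FPKM plus 1 over PID- FPKM plus 1, and 3-fold was the threshold. Positions and transcript lengths came from Gencode M21. The genes and lists were chosen with earlier results of these data known. Named genes were the 6 chosen, the nearest gene of the table on each side of them, and from each list the most abundant gene (by the sum over both conditions) and those past 3-fold whose higher value reached 1 FPKM; others were named after their values were seen. Alternatives were a pseudocount of 0.1, equal total, upper quartile or Gapdh FPKM, subtraction of chromosome medians, a limit of 5 on the mean FPKM (also used for those medians) and intervals apart in place of 3-fold. Calculations used Python 3.11.15, numpy 2.4.6 and pandas 2.3.3 and were tested on simulated data. Protein sequences were not analysed here, and 1 gene is not reported here.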

Additional observations from a re-analysis of the deposited data

How the results depend on the processing

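Plau, Plaur, Plat and Serpinb2 had log2 changes above 0 under every alternative that gave a value, from 0.31 to 0.94 for Plau, 0.19 to 0.82 for Plaur, at least 0.75 for Plat and 0.71 to 1.70 for Serpinb2. Serpine2 reversed to -0.085 with equal Gapdh FPKM. With a pseudocount of 0.1 the log2 change of Serpinb2, 1.70, passed 3-fold, so that 1 of the 6 genes was higher, and at 1.5-fold, chosen after seeing the data, 4 were, or 2 with equal Gapdh FPKM as well. Of the other plasmin system genes, 2 were lower and 1 higher by intervals apart, 1 was higher with equal total FPKM and 0 with equal Gapdh FPKM, and a pseudocount of 0.1 gave 7 lower and 6 higher. The ratio of activators to inhibitors with further inhibitors added was not run. A mean FPKM of at least 5 left no value for Plg, Serpine2 and Serpinb2. No paired analysis was possible because the deposited values are pooled, and no sample could be left out. The pooled values limit every comparison: variation between mice is not measured, and at an FPKM near 1 the pseudocount sets the size of a change.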
